A study of Mus musculus with 8 samples.

Results

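The region described here is the part of mouse chromosome 17 that holds Tnf (gene ID 21926), Lta (16992) and Ltb (16994), 3 neighbouring genes of the tumor necrosis factor family. Its members are all open chromatin peaks of build mm9 that touch a fixed 50 kb window around these genes; the first starts at 35315487 and the last ends at 35359527. This rule, which used position alone, found 14 of the 74207 peaks in the deposited table, and all 14 passed the filter on low values. Peaks are numbered 1 to 14 in order of position. The table gives no gene names and no annotation of build mm9 was used, so only the approximate span of Tnf that the rule gives ties peaks to a gene. Peaks 7, 8, 9 and 10, from 35335631 to 35339208, overlap this span. No peak was assigned to Lta or Ltb.

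The assay was ATAC-seq, where a transposase cuts and tags DNA that is open, and the cells were macrophages grown from bone marrow of wild-type (WT) C57Bl/6 mice. Each of 2 mice gave 4 libraries, 1 for each group, which makes n = 2 per group and 8 libraries in all. The groups were unstimulated cells, cells given the β2 adrenergic receptor agonist fenoterol (1 µM for 15 min), cells given the Toll-like receptor 4 ligand LPS (100 ng/mL for 1 h), and cells given fenoterol for 15 min and then LPS for 1 h. Time since the agonist therefore differed between the groups with fenoterol, and LPS and this time cannot be told apart between them. The shallowest library, unstimulated mouse 1, held 1426873 reads in peaks, and the other 7 held 3164446 to 4040292. A mean level does not tell whether more cells had a site open or each cell had it open for longer; these cannot be told apart. The macrophage label was not checked against marker genes, because the peaks carry no gene names here.

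Tnf encodes tumor necrosis factor, an inflammatory cytokine that macrophages release soon after Toll-like receptor signalling activates NF-κB and MAP kinases. Lta encodes lymphotoxin alpha, which is secreted or joins lymphotoxin beta, the membrane protein encoded by Ltb, in a complex that signals through the lymphotoxin beta receptor in lymphoid organ development. Both lymphotoxin genes are known mainly from lymphocytes. Agents that raise cyclic AMP, as β2 adrenergic agonists do, are known to lower TNF output of LPS-treated macrophages. By its title, the study asked how the β2 receptor acts on early IL-1β output and Il1b, another gene that LPS induces.

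In RefSeq's gene table (assembly GRCm38.p6) the neighbours follow in the order Aif1, Lst1, Ltb, Tnf, Lta, Nfkbil1, Atp6v1g2 and Ddx39b with rising position. By this order, peaks 1 to 6 lie on the Ltb side of Tnf and peaks 11 to 14 on the Lta side. Tnf and Lta are read from the minus strand and Ltb from the plus strand. Peak 10 is therefore the Tnf peak at the end of the span where transcription starts, and peak 7 lies at the other end of the gene.

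The 250 bases before the RefSeq start of each gene are shown because these promoters stand in the region whose accessibility is described. Sequences and their coordinates are of build GRCm38.p6, run 5′ to 3′ along the gene, and were not placed on the mm9 peaks. Capitals mark matches, on either strand, to the κB pattern of NF-κB sites (3 G, then 5 bases of any kind, then 2 C) or to 1 of 6 motifs. For the factors that answer MAP kinases and cyclic AMP, these were the AP-1 motif TGANTCA and the cyclic AMP response element (CRE) TGACGTCA. For factors typical of macrophages they were the C/EBP motif TTGCGCAA and the core GAGGAA bound by ETS factors such as PU.1. The general promoter elements were the TATA box, searched as TATAAA, and the GC box, which was searched as GGGCGG.
Tnf, chr17:35202008-35202257, minus strand: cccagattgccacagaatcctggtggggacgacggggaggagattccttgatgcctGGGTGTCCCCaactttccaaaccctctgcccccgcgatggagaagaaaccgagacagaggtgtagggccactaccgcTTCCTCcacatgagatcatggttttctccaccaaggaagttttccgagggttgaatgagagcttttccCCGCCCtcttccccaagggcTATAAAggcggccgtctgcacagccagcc
Lta, chr17:35205352-35205601, minus strand: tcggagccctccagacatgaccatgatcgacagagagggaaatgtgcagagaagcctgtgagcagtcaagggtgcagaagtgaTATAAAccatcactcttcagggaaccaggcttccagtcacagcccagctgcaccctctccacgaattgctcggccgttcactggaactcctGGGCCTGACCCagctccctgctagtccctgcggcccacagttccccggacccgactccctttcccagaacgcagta
Ltb, chr17:35194257-35194506, plus strand: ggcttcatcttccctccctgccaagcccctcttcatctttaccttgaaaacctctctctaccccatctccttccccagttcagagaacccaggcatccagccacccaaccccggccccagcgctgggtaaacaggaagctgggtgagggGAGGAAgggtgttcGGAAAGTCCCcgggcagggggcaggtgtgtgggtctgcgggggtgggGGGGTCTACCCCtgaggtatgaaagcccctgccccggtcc

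The Tnf promoter held, in the printed part, a κB match at -194 to -185, an ETS match at -117 to -112, a GC box at -49 to -44 and a TATA box at -29 to -24, counted from the start. A further κB match lay at 29 to 38 past the start, outside the printed part. Lta held overlapping κB matches from -76 to -66 and a TATAAA at -167 to -162. In Ltb there was a κB match at -87 to -78, overlapping ones from -40 to -29 and an ETS match at -101 to -96. None of the 3 held the AP-1, CRE or C/EBP letters in the 300 bases searched (250 before and 50 after the start). Among 32851 promoters of that length in the table, 50.8% held the κB letters, 28.3% the ETS, 13.6% the TATA, 35.7% the GC box, 7.81% the AP-1, 1.79% the CRE and 0.183% the C/EBP letters. Each match is a description of letters, not of a bound site. The CRE and C/EBP letters left no base free, unlike the κB pattern, and sequences that depart from them were not sought. Lack of a match therefore does not show lack of a site.

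The peaks at Tnf opened strongly with LPS for 1 h. All 4 peaks of the Tnf span rose against unstimulated cells, and so did peaks 11 and 13 on the Lta side, whereas no peak of the region fell by the main test. That is 6 of 14 peaks higher, against 6.53% of the 66786 peaks tested, and 0 of 14 lower, against 3.54%. Voom on reads recovered from the values called 7 higher, peak 12 being added, against 7.16%, and 0 lower, against 4.65%. In both mice, 7 of 14 peaks were higher, against 29.7% of tested peaks, and 4 were lower, against 33.7%. The median log2 change of the 14 was 0.34, beside -0.03 over all tested peaks. Tests were made with limma on log2(scaled RPKM + 4), so the log2 changes understate the ratio of the levels. RPKM, reads per kb of peak relative to all reads in peaks, is scaled between libraries throughout.

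Peak 7, at 35335631 to 35336577, showed the widest change. Its level was 18.9 and 10.4 RPKM in unstimulated cells of mouse 1 and mouse 2, and 82.2 and 85.3 RPKM with LPS. Both LPS libraries lay far above both unstimulated ones, and the group means, 14.7 ± 6.02 and 83.8 ± 2.19 RPKM (SD, n = 2), stood in a ratio of 5.71. The log2 change was 2.27 (SE 0.22, adjusted p = 3.25e-06), rank 24 of 66786 peaks in size of rise. The reads behind these levels were 24 (exact 95% Poisson interval 15.4 to 35.7) and 41 (29.4 to 55.6) without LPS, and 275 (243 to 309) and 298 (265 to 334) with it. These intervals cover counting error only, and PCR copies are not independent molecules.

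Peak 10, at 35338260 to 35339208 and nearest the start of Tnf, had nearly equal unstimulated values. It stood at 20.5 RPKM in both unstimulated libraries (20.47 and 20.53) and at 68.0 and 62.6 RPKM with LPS. The ratio of means was 3.19 and the log2 change 1.499 (SE 0.14, adjusted p = 2.66e-06). Peak 8, the broadest of the region with 1320 bp (35336641 to 35337960), was the most open of the 4 before stimulation. It went from 35.1 and 26.6 RPKM to 83.7 and 87.1 RPKM, a ratio of 2.77 (log2 change 1.37, SE 0.17, adjusted p = 2.53e-05).

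Peak 9, a 203 bp stretch at 35337975 to 35338177, gave 29.6 and 13.1 RPKM without LPS and 61.6 and 73.8 RPKM with it. Its mice differed more than those of the other 3, on 8 and 11 reads in the unstimulated libraries. The change was 0.97 in mouse 1 and 2.19 in mouse 2 on the log2 scale, and 1.58 in the fit (SE 0.25, adjusted p = 0.00037). Gaps of 63, 14 and 82 bp separate the 4 peaks, so they may share fragments and are better read as 1 open stretch than as 4 independent observations.

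**Figure D1:**
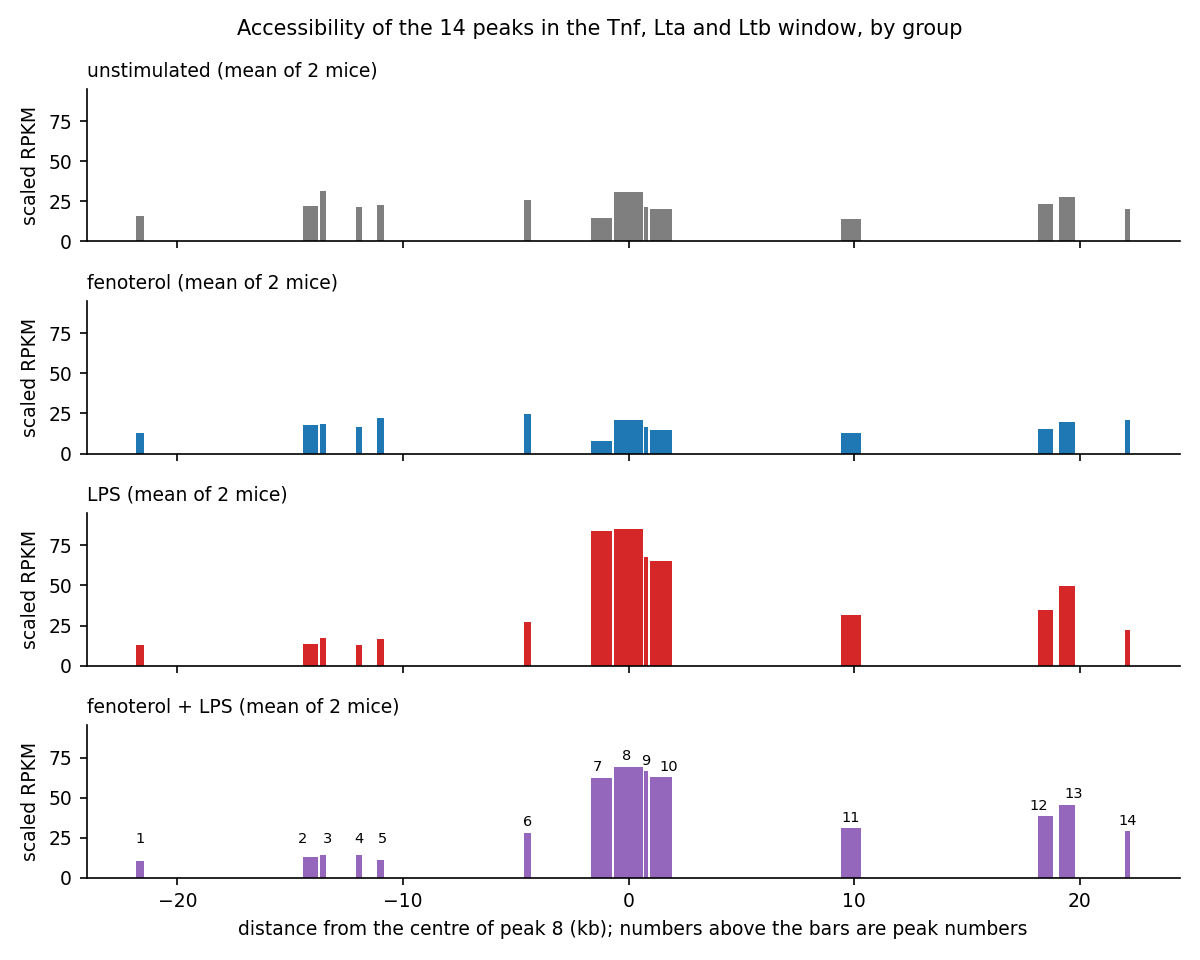
Mean accessibility of the 14 peaks (scaled RPKM, linear axis, mean of 2 mice) in each group, against distance in kb from the centre of peak 8; bar widths are peak widths. Peaks 7 to 10 rise from 14.7 to 30.8 RPKM in unstimulated cells to 65.3 to 85.4 RPKM with LPS, while with LPS peaks 1 to 6 lie at 12.8 to 27.2 RPKM.

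Set among all peaks of the table, those at Tnf moved from the middle of the range to near its top. Unstimulated means of peaks 7, 8, 9 and 10 lay at percentiles 42.1, 76.8, 62.1 and 60.2 of the 74207 peaks. With LPS they lay at 98.8, 98.9, 96.9 and 96.5. Summed over the span, RPM (reads per 1000000 reads in peaks) was 84.1 (95% Wilson interval 70.3 to 101) and 69.1 (61.4 to 77.6) in unstimulated cells of the 2 mice, against 266 (250 to 284) and 274 (257 to 291) with LPS. The ratio of group means was 3.53. The 10 peaks outside the span together went from 97.2 ± 6.23 to 126 ± 3.06 RPM (SD, n = 2), a ratio of 1.29. Of all reads of the region, the Tnf span took 45.3% and 42.7% without LPS and 68.3% and 68.2% with it.

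**Figure D2:**
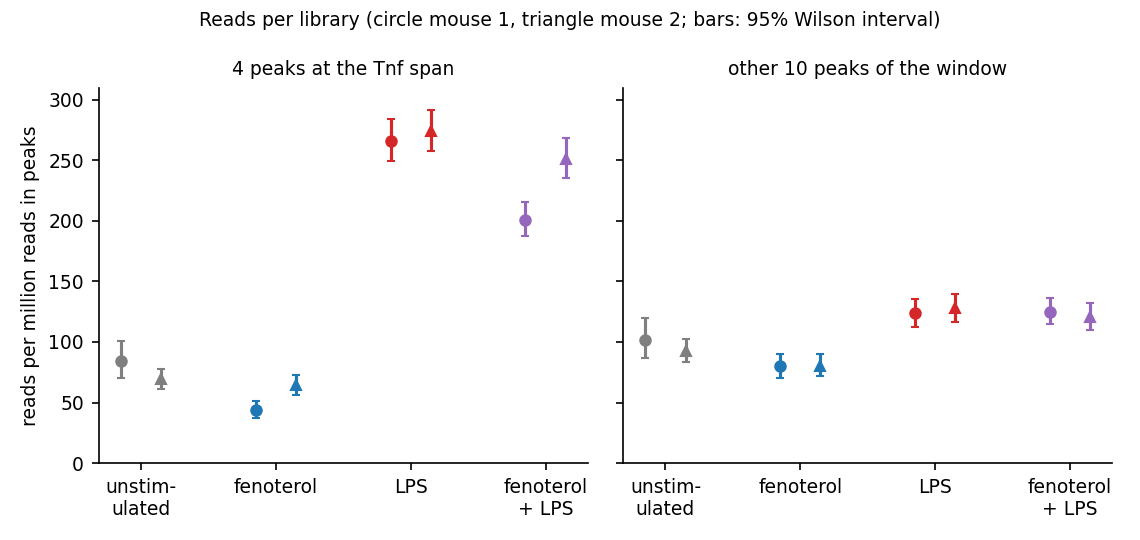
RPM of reads in peaks in each library, summed over the 4 peaks at the Tnf span (left) and over the other 10 peaks (right); circles are mouse 1, triangles mouse 2, bars the 95% Wilson interval of the read count. The 4 libraries with LPS sit at 201 to 274 in the left panel, above the 43.6 to 84.1 of those without.

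On the Lta side the rise was smaller. Peak 11, at 35346727 to 35347597 and 7.73 kb beyond the span, had 12.9 and 14.6 RPKM in unstimulated cells and 29.6 and 33.9 RPKM with LPS (ratio 2.31, log2 change 1.01, SE 0.19, adjusted p = 0.00156). Without the LPS library of mouse 2 its adjusted p was 0.0538, and the count of risen peaks 5. Peak 13, at 35356368 to 35357097, went from 31.7 and 24.1 RPKM to 50.5 and 49.1 RPKM (ratio 1.78, log2 change 0.76, SE 0.15, adjusted p = 0.00251). Its neighbour peak 12, at 35355468 to 35356102, was higher with LPS in both mice, at 33.9 and 35.5 RPKM against 25.9 and 20.5 RPKM, and missed the threshold (log2 change 0.52, SE 0.17, adjusted p = 0.0534). By voom it passed (adjusted p = 0.00886). The outermost, peak 14 at 35359316 to 35359527, had 14.1 and 26.2 RPKM without and 21.5 and 23.1 RPKM with LPS, with overlapping groups and mice that went opposite ways.

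On the Ltb side no peak rose. Peak 6, at 35332676 to 35332959 and the nearest to Tnf there (3.04 kb from the span), had 26.4 and 25.5 RPKM in unstimulated cells. With LPS it had 18.0 and 36.4 RPKM, so that the mice moved opposite ways (log2 change -0.01, 95% interval -0.44 to 0.43). Peaks 1 to 5, between 35315487 and 35326446, had group means of 15.8 to 31.5 RPKM unstimulated and 12.8 to 17.1 RPKM with LPS. All 5 differences were negative, from -0.73 to -0.24, and 4 of the 5 were lower in both mice, the exception being peak 1.

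Peak 3, at 35323647 to 35323881, came closest to a call. It had 38.3 and 24.6 RPKM without LPS and 14.5 and 19.7 RPKM with it (log2 change -0.73, SE 0.25, adjusted p = 0.0632). It passed as lower in 4 of 20 alternatives, among them the fit with the mouse as a block (adjusted p = 0.0477). By voom its adjusted p was 0.205, and without the unstimulated library of mouse 1 it was 0.396. With mouse 2 dropped from the unstimulated group, only the shallow library of mouse 1 remained there, and peaks 3 and 5 differed by -1.015 and -0.72. With mouse 1 dropped instead, they differed by -0.45 and 0.04.

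The same peaks opened in fenoterol-treated cells. Fenoterol + LPS against fenoterol gave 7 of 14 peaks higher, namely 7 to 13, against 9.43% of all tested peaks, and peak 5 lower, against 4.32%. None of its 4 libraries entered the LPS effect measured without fenoterol, although the spread came from all 8 in both. The groups compared also differed in time since the agonist. Voom called the same numbers, 7 higher (12.1% of tested peaks) and 1 lower (7.12%), and had 9 at an unadjusted p under 0.05 (30.3%). In both mice, 9 of 14 were higher, against 32.6%, and 4 lower, against 37.1%. The median log2 change of the 14 was 0.73, beside -0.03 over all tested peaks.

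Peak 7 went from 4.64 and 10.9 RPKM with fenoterol to 56.6 and 68.4 RPKM with both agents, a ratio of means of 8.06. Its log2 change was 2.55 (SE 0.22, adjusted p = 5.86e-07), rank 11 of 66786 in size of rise. The fenoterol library of mouse 1 held 14 reads there (exact 95% Poisson interval 7.65 to 23.5). Peak 10 went from 13.9 and 16.0 RPKM to 59.4 and 65.9 RPKM, a ratio of 4.19, and had the smallest adjusted p of the region (log2 change 1.82, SE 0.14, adjusted p = 1.88e-07).

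Peak 8 rose from 17.6 and 24.5 RPKM to 59.8 and 78.6 RPKM (log2 change 1.55, SE 0.17, adjusted p = 4.44e-06). Peak 9 rose from 12.4 and 20.3 RPKM to 50.03 and 82.8 RPKM (log2 change 1.78, SE 0.25, adjusted p = 7.60e-05), and its mice were again far apart. All 4 peaks of the Tnf span thus had both libraries with both agents above both libraries with fenoterol alone. The share of all tested peaks with this order was not counted. The looser pattern, higher in both mice, was met by 32.6% of them.

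Beyond Tnf, peak 11 rose from 13.3 and 12.4 RPKM to 30.8 RPKM in each mouse (log2 change 1.04, adjusted p = 0.000798). Peak 12 went from 13.9 and 16.2 RPKM to 39.8 and 36.9 RPKM (log2 change 1.16, SE 0.17, adjusted p = 9.21e-05), and peak 13 from 18.5 and 20.8 RPKM to 45.1 and 45.9 RPKM (log2 change 1.07, adjusted p = 8.06e-05). Both groups were tight at these 3 peaks and did not overlap, an order whose share over all tested peaks was likewise not counted.

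Peak 5, at 35326144 to 35326446, fell from 22.9 and 21.3 RPKM to 11.7 and 10.2 RPKM (log2 change -0.80, SE 0.25, adjusted p = 0.0361). The call was lost without either fenoterol library (0.204 without mouse 1, 0.108 without mouse 2), without either fenoterol + LPS library (0.106 and 0.195) and in a fit without a mean trend (0.0818). Of the rest, peaks 2, 3 and 4 were lower in both mice and peaks 6 and 14 higher in both, none past the threshold (adjusted p from 0.245 to 0.821), while the mice split at peak 1.

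**Figure D3:**
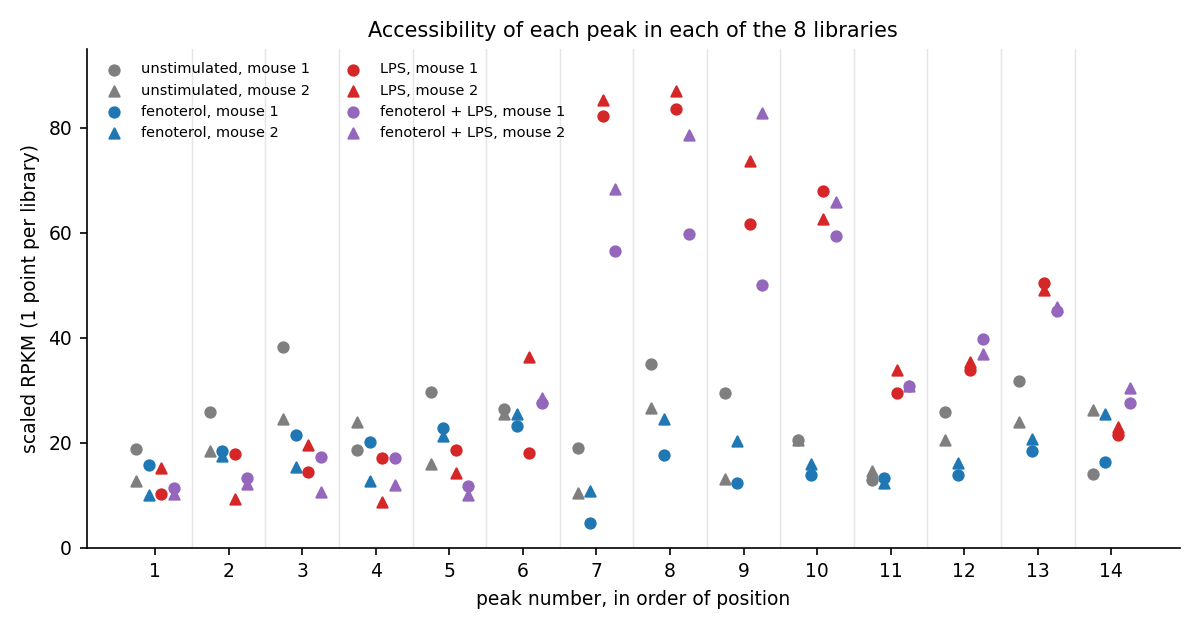
Accessibility (scaled RPKM, linear axis) of each peak in each of the 8 libraries; colours are groups, circles mouse 1 and triangles mouse 2. At peaks 7 to 13 every library with LPS lies above every library without; at the other 7 peaks the libraries overlap.

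Over the 8 libraries, peaks 7 to 13 had all 4 libraries with LPS above all 4 without, 7 of 14 against 12.3% of tested peaks, and no peak had them all below, against 11.3%. At peak 7 the lowest library with LPS had 56.6 RPKM and the highest without it 18.9 RPKM. At peak 10 these were 59.4 and 20.5 RPKM, and at peak 12 they were 33.9 and 25.9 RPKM. In the 50 kb before the region, 5 peaks were tested, and LPS against unstimulated called 0 higher and 0 lower (median log2 change -0.16). In the 50 kb after it, 7 peaks were tested with 0 called in either direction (median -0.28). Fenoterol + LPS against fenoterol called 1 peak lower before the region and 0 after it. The difference between the region and its flanks was not tested.

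**Figure D4:**
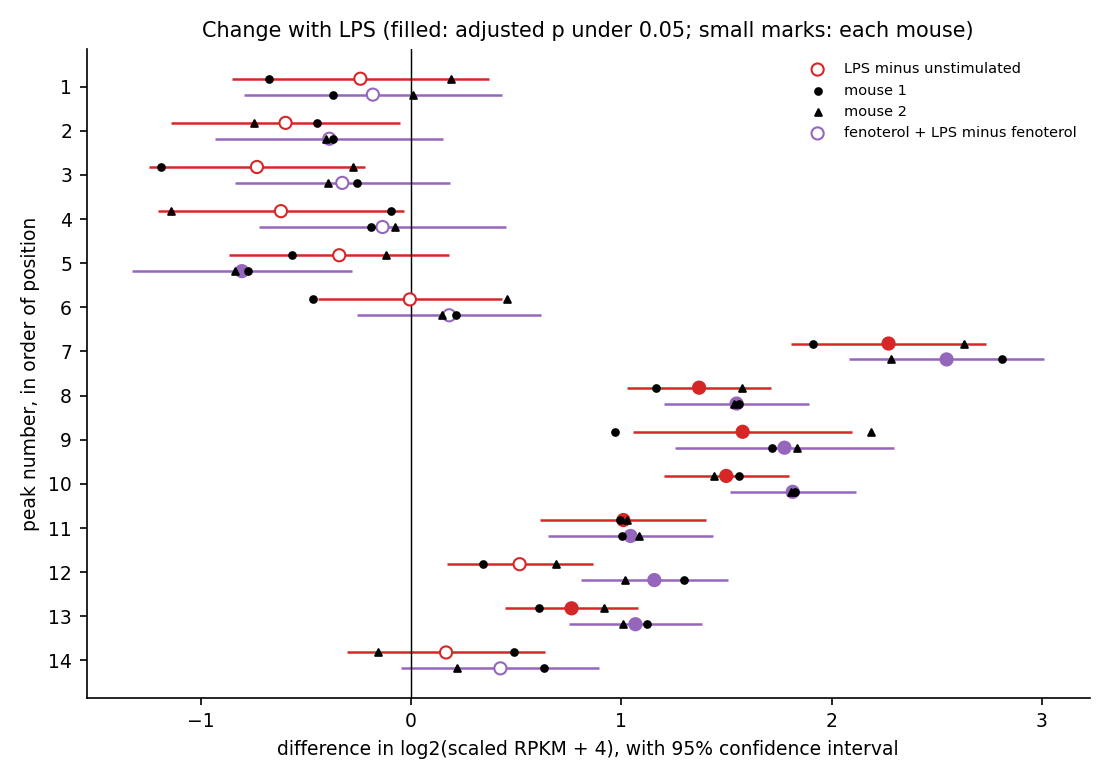
Change with LPS at each peak, without fenoterol (red) and with it (purple), as difference in log2(scaled RPKM + 4) with the 95% confidence interval of the limma fit; filled symbols passed an adjusted p of 0.05, and small black marks are the 2 mice. Peaks 7 to 10 lie between 1.37 and 2.55 in both comparisons, and peaks 1 to 5 lie below 0.

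Fenoterol alone for 15 min changed no peak of the region past the threshold, although most values were lower. By limma 0 of 14 were called in either direction, where 0.00599% of tested peaks were called higher and 0.0015% lower, and voom called 0 as well, where 0.0434% of tested peaks were higher and 0.00299% lower. At an unadjusted p under 0.05 there were 6 peaks by limma, all lower with fenoterol (peaks 3, 7, 8, 10, 12 and 13), where 7.43% of tested peaks reached that level in either direction. Voom had 5 such peaks, against 5.57%. Lower values in both mice were seen at 8 of 14 peaks, against 28.3% of tested peaks, and higher ones in both at 0, against 23.8%.

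At Tnf the mice differed. Peak 7 had 4.64 RPKM with fenoterol against 18.9 unstimulated in mouse 1, and 10.9 against 10.4 in mouse 2. The log2 differences at peaks 7, 8, 9 and 10 were -1.41, -0.86, -1.03 and -0.45 in mouse 1, and 0.04, -0.10, 0.51 and -0.30 in mouse 2. In the fit, peak 7 differed by -0.68 (SE 0.22, unadjusted p = 0.00608, adjusted p = 0.519), peak 8 by -0.48 (adjusted p = 0.557), peak 9 by -0.26 (adjusted p = 0.846) and peak 10 by -0.37 (adjusted p = 0.595). Peak 10 and peak 8 were thus lower in both mice, peaks 7 and 9 in mouse 1 alone.

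On the Lta side, peaks 12 and 13 were lower in both mice. Peak 12 had 13.9 and 16.2 RPKM with fenoterol against 25.9 and 20.5 RPKM without (log2 difference -0.51, SE 0.17, adjusted p = 0.519). Peak 13 had 18.5 and 20.8 RPKM against 31.7 and 24.1 RPKM (log2 difference -0.42, adjusted p = 0.57). In mouse 1 the reference is the shallow unstimulated library. With that library left out, no peak of the region passed and peak 7 differed by -0.35. Leaving out the other unstimulated library instead, peaks 3, 7, 8, 12 and 13 passed as lower (adjusted p = 0.013 for peak 7 and 0.0268 for peak 8).

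With fenoterol before LPS, mean levels of the 4 Tnf peaks lay below those with LPS alone, but no difference passed on all 8 libraries. No peak of the 14 passed by limma or by voom; over all tested peaks limma called 0% in either direction and voom 0.551% higher and 0.0509% lower. None of the 14 had an unadjusted p under 0.05 by limma, where 6.66% of tested peaks did, and 2 did by voom (peaks 7 and 8, both lower), against 9.77%. Lower in both mice were 4 of 14 peaks, against 29.2%, and higher in both 2, against 29%.

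Peak 7 had 56.6 and 68.4 RPKM with both agents, against 82.2 and 85.3 RPKM with LPS alone. The groups did not overlap, and the level was lower in both mice, by 0.51 and 0.30 on the log2 scale. Its fitted difference was -0.41 (SE 0.22, adjusted p = 0.807), or 0.755-fold with a 95% interval of 0.547 to 1.04. Voom gave -0.43 (unadjusted p = 0.00349, adjusted p = 0.175). In a fit on the 4 libraries compared it passed, as the only peak of the region (log2 difference -0.42, adjusted p = 0.0369). That fit called 34 of 66786 tested peaks lower and 272 higher, where limma on all 8 libraries called 0 in either direction. The call of peak 7 thus depended on which libraries set the spread.

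Peak 8 showed the same order, with 59.8 and 78.6 RPKM against 83.7 and 87.1 RPKM (0.812-fold, 95% interval 0.64 to 1.03, adjusted p = 0.81). Nearer the start of the gene the ratios lay close to 1. Peak 9 had 50.03 and 82.8 RPKM against 61.6 and 73.8 RPKM (0.959-fold, 95% interval 0.668 to 1.38), and peak 10 had 59.4 and 65.9 RPKM against 68.0 and 62.6 RPKM (0.961-fold, 95% interval 0.781 to 1.18). At these last peaks the mice went opposite ways and the groups overlapped. The intervals allow a difference in either direction, so alike levels were not shown. Whether peaks 7 and 8 differ from peaks 9 and 10 in this comparison was not tested.

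Summed over the Tnf span, the libraries with both agents had 201 (95% Wilson interval 187 to 215) and 251 (235 to 268) RPM. Those with LPS alone had 266 and 274. These intervals cover counting error only, not the spread between mice. The ratio of group means was 0.837. Fenoterol alone gave 43.6 (36.9 to 51.5) and 64.2 (56.6 to 72.8) RPM, a ratio of 0.704 to unstimulated cells. The levels at Tnf therefore ran from fenoterol to unstimulated, fenoterol + LPS and LPS, and neither the first pair of neighbours nor the last was parted by the limma test on all 8 libraries at any of the 4 peaks.

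Away from Tnf, the intervals of the differences between fenoterol + LPS and LPS all held 0, as they did at Tnf. Peak 11 had 30.8 RPKM in each mouse against 29.6 and 33.9 RPKM, and peak 13 had 45.1 and 45.9 RPKM against 50.5 and 49.1 RPKM (0.92-fold, 95% interval 0.74 to 1.15). Peak 14 was higher in both mice, at 27.5 and 30.4 RPKM against 21.5 and 23.1 RPKM (1.25-fold, 95% interval 0.904 to 1.74, adjusted p = 0.894). Peak 5 was lower in both, at 11.7 and 10.2 RPKM against 18.7 and 14.4 RPKM (0.73-fold, 95% interval 0.508 to 1.05, adjusted p = 0.81).

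**Figure D5:**
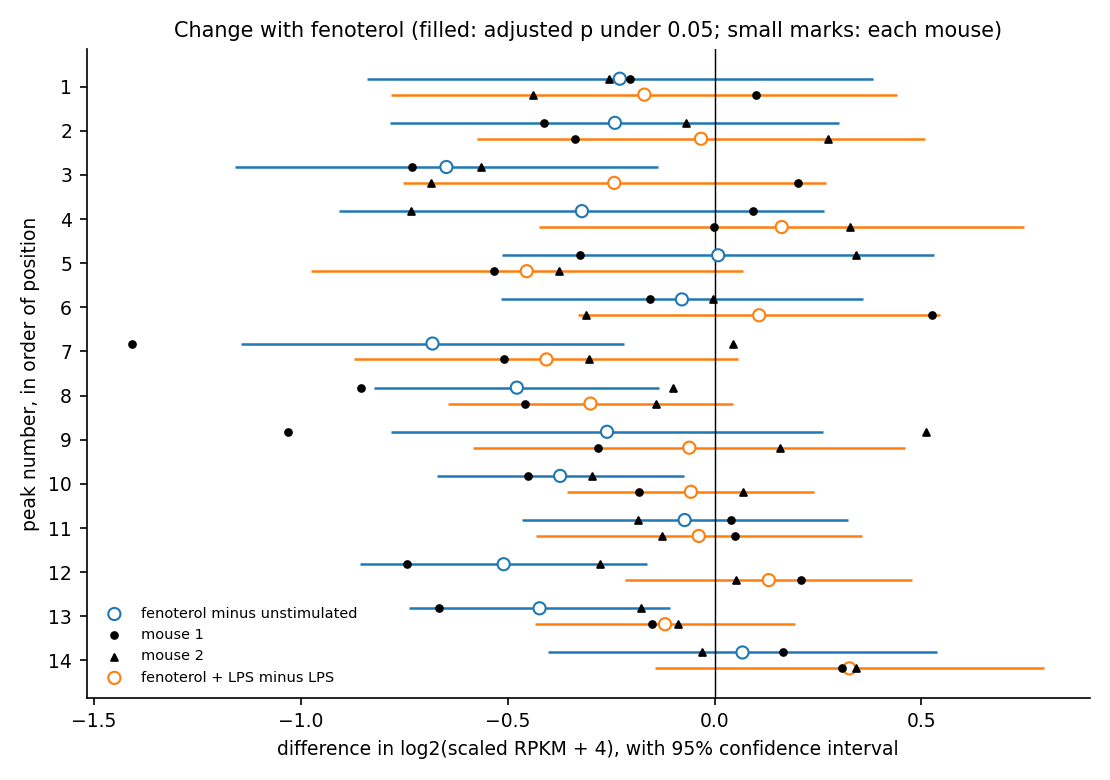
Change with fenoterol at each peak, without LPS (blue) and before LPS (orange), as difference in log2(scaled RPKM + 4) with the 95% confidence interval of the limma fit; open symbols did not pass an adjusted p of 0.05, and small black marks are the 2 mice. No peak passed in either comparison, and the mice lie farthest apart at peaks 7 and 9 without LPS.

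The response to LPS was not shown to depend on fenoterol at any of the 14 peaks. The groups with fenoterol also differed in time since the agonist. The interaction, the LPS change with fenoterol minus that without, passed at 0 of 14 peaks by limma and by voom, against 0% of tested peaks called by limma in each direction. One peak, peak 12, had an unadjusted p under 0.05 by each test, where 6.33% of tested peaks had by limma and 6.57% by voom; voom called 0.0015% higher and 0.00449% lower. It was 0.64 there (95% interval 0.15 to 1.13, unadjusted p = 0.0131, adjusted p = 0.699). At Tnf it was 0.28 for peak 7 (-0.38 to 0.93), 0.18 for peak 8 (-0.31 to 0.67), 0.20 for peak 9 (-0.54 to 0.94) and 0.32 for peak 10 (-0.11 to 0.74). The median over the 14 was 0.23, beside 0.02 over all tested peaks. Without the unstimulated library of mouse 1 the values of peaks 7, 8 and 9 were -0.06, 0.00336 and -0.29, while peak 10 gave 0.32 and peak 12 0.50 (adjusted p = 0.722). Without that of mouse 2, peaks 7, 8 and 9 gave 0.61, 0.35 and 0.69, again with none past the threshold, so these values depended on which unstimulated library was used.

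Among peaks of the whole table, the patterns most like that of peak 8, the highest of the Tnf span by mean, were sought by Pearson's r of log2 values over the 8 libraries. The first of 66785 was its neighbour peak 7 (r = 0.996). Next came a peak on chromosome 10 at 18684598 to 18685101 (r = 0.996), with means of 14.6 RPKM (unstimulated), 9.73 (fenoterol), 30.5 (LPS) and 25.7 RPKM (fenoterol + LPS). A peak on chromosome 1 at 140836925 to 140837367 followed (r = 0.995), with 11.3, 8.78, 25.05 and 20.8 RPKM in the same order. Within the region, r was 0.985 for peak 13, 0.976 for peak 10, 0.971 for peak 9, 0.940 for peak 12 and 0.938 for peak 11. Peaks 14 and 6 had r of 0.399 and 0.226, and peaks 1 to 5 negative values from -0.63 to -0.32. These values describe 8 libraries that share the LPS contrast and carry no test.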

How the data were processed

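ATAC-seq of 8 libraries (2 mice, 4 groups) was analysed. The authors deposited 1 RPKM value per peak and library. Per the submitters' processing notes, cutadapt, Bowtie2, MACS2 and HOMER were used on build mm9, with no versions named. Whether duplicates were removed, reads shifted for the Tn5 cut or libraries pooled to call peaks is not given in the sources used here. Multiplied by peak length, with the smallest product of each library taken as 1 read, 100% of values were whole reads to within 0.01 read. Whether values at this minimum stood for peaks without reads was not checked. The reads given back in this way showed that RPKM is relative to reads in peaks. A change shared by every peak would thus be invisible.

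Values were divided by median-ratio size factors (0.94 to 1.04). With a pseudocount of 4 and without the 10% of peaks with the lowest mean (cutoff 9.62 RPKM), limma 3.58.1 in R 4.3.3 (limma-trend, 4 group means over 8 libraries, 4 residual and 16.4 prior degrees of freedom) was fitted to 66786 peaks, with Benjamini-Hochberg adjustment over all of them and a threshold of 0.05. The peak set, gene lists and tests were chosen with earlier results of these data known. Peaks named in full were those at Tnf, those past the threshold in any contrast and the 3 with the smallest p in each. The list of TNF pathway genes was not used, since no annotation of build mm9 was at hand.

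Alternatives were other scalings, pseudocounts of 0.8 and 20, other filters, a constant prior for the spread, a block for the mouse, voom on recovered reads, only the 4 libraries compared, and each library left out. Libraries of the same mouse number come from 1 animal per the labels; differences between the mice correlated at 0.0222 to 0.0713 across groups. P-values rest on 2 animals per group.

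On simulated data for LPS against unstimulated with 66786 peaks, limma-trend recovered 37.5% of 72 peaks changed 2-fold and 63.6% of 55 changed 3-fold, with 3 false calls. For fenoterol + LPS against LPS it recovered 1.69% of 59 peaks changed 1.5-fold and 34.4% of 64 changed 2-fold, with 1 false call. Voom recovered 55.6% (2-fold) and 78.2% (3-fold) in the first comparison, with 5 false calls. In the second it recovered 20.3% (1.5-fold) and 51.6% (2-fold), with 6 false calls. The changed peaks were drawn at random and only raised, so these shares do not describe the peaks at Tnf or falls in level.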

Additional observations from a re-analysis of the deposited data

Results flagged for a closer look

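At peak 12 (35355468 to 35356102), fenoterol went with lower accessibility in both mice without LPS and with higher accessibility in both mice before LPS. The log2 differences were -0.74 and -0.28 without LPS and 0.21 and 0.05 with it. In mouse 1 the reference without LPS was the shallow unstimulated library. Over all tested peaks, 28.3% were lower in both mice without LPS and 29% higher in both before LPS. The share that met both patterns was not counted. Time since the agonist also differed between these states. The interaction was 0.64 (adjusted p = 0.699 by limma), so a difference between the states was not established. Its adjusted p ran from 0.119 to 1 over 19 alternatives.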

How the results depend on the processing

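Precision is limited by 2 mice per group and by the unstimulated library of mouse 1, with 8 to 26 reads at peaks 7, 9 and 10. The count of peaks called for LPS against unstimulated was 6 and ran from 5 to 8 when 1 library was left out; peaks 7, 8, 9, 10 and 13 passed under all 20 alternatives. With the replicate block the count was 7 because peak 3 passed as lower, and peak 12 passed as higher after quantile normalization, cyclic loess, with a pseudocount of 20, on values as deposited, by voom with and without the block, and without the unstimulated library of mouse 1. For fenoterol + LPS against fenoterol the count was 8, and 7 to 8 with 1 library left out; peaks 7 to 13 passed under all 20 alternatives. For fenoterol against unstimulated it was 0. It did not stay 0 without the unstimulated library of mouse 2, a fit that left only the shallow library of mouse 1 in that group. When 1 library was left out, the log2 difference of peak 7 in this comparison ran from -1.07 to -0.29. For fenoterol + LPS against LPS it was 0, and 1 (lower) in the fit on only the 4 libraries compared. That fit called 34 of 66786 tested peaks lower and 272 higher. The interaction gave 0 under all 19 alternatives. In the comparisons other than LPS against unstimulated, the replicate block changed no call at the 14 peaks. Of the peaks past the threshold or among the 3 smallest p in a comparison, none changed sign there under any alternative.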
